A study of Mus musculus with 6 samples.

Results

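Fibroblast growth factors (FGFs) are secreted proteins that bind receptor tyrosine kinases together with heparan sulfate. In the limb bud, a thickened strip of ectoderm along the distal margin, the apical ectodermal ridge, secretes FGFs that keep the mesenchyme beneath it alive and growing, and the mesenchyme secretes Fgf10, which signals back to the ectoderm. Members of the Sp family of zinc finger transcription factors are expressed in limb ectoderm, and Sp8 is known for its role in forming the ridge. The 8 FGF ligand genes described here were chosen by gene symbol from a table of 49452 genes: Fgf8, Fgf4, Fgf9 and Fgf17, known as ligands of the ridge, and Fgf2, Fgf10, Fgf15 and Fgf18.

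The data are polyadenylated RNA profiles of forelimb ectoderm from 6 mouse embryos at stage E10.5. For each library both forelimbs of a single embryo gave the ectoderm, which was freed with 0.25% trypsin for 20 min. Of the embryos 3 were Sp8 null, bred from parents that each carried 1 Sp8-Cre-ERT2 allele, and 3 were wild type, bred from C57BL/6 mice. All libraries carried the strain label C57BL6J, litters were not stated, and the genotypes came from separate crosses, so genotype and cross cannot be told apart. Sample names began with 4 for embryo 1 of each genotype and with 5 for the rest, and the meaning of this number is not known.

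Values are FPKM, fragments scaled to transcript length and to the mapped total of the library, which allows levels to be compared between genes. Relative depths, read from the steps between low FPKM values, lay between 0.842 and 1.03 with wild-type embryo 1 set to 1, and read totals are not known. Sp8 lay between 0.460 and 1.14 FPKM in the null libraries and between 8.35 and 13.5 FPKM in the wild-type libraries, so each library followed its label. Of 15 limb ectoderm markers all 15 passed the filter described below, and the epithelial regulator Trp63 lay between 110 and 144 FPKM in all libraries. The summed FPKM of 16 limb mesenchyme markers ranged from 99.8 to 156 in wild type and from 116 to 248 in Sp8 null, none of the 16 being at 0 in every library, so that the ectoderm samples also held mesenchymal transcripts. Sp8 null embryo 2 had the highest sum. The largest single part of the sum in every library was Meis2, which was highest in null embryo 1. Meis2 lay between 52.0 and 64.2 FPKM in wild type and between 60.7 and 74.5 FPKM in Sp8 null.

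The RefSeq promoter table (GRCm38.p6) held a window of 300 bases, 250 before and 50 after the start, for 5 of the ligands: Fgf4, Fgf9, Fgf2, Fgf10 and Fgf18. The windows of Fgf4 and Fgf9 are printed because both genes fell in Sp8 null. Each is given 5′ to 3′ on the gene's strand, and capitals mark the GC box GGGCGG, the element that Sp proteins are known to bind, found on either strand.
Fgf4, chr7:144861136-144861435, plus strand: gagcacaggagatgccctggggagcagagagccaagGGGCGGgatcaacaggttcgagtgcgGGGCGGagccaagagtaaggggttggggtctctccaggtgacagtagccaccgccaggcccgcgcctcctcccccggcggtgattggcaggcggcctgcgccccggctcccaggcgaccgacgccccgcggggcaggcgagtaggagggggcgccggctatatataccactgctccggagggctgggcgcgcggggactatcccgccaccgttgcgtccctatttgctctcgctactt
Fgf9, chr14:58072436-58072735, plus strand: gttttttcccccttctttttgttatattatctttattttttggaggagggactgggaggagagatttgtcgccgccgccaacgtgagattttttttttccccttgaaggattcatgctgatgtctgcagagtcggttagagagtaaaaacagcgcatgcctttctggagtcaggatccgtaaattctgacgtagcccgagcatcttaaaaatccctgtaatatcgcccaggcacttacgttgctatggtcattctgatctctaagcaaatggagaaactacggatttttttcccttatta
The Fgf4 window held 2 GC boxes, with first bases at -214 and -188 from the start, and 69.7% of its bases were G or C. The Fgf9 window held 0, and 42.7% of its bases were G or C. The windows of Fgf2, Fgf10 and Fgf18 each held 1 GC box, and 35.7% of the 32851 promoter windows in the table held at least 1. Searched in the same way on both strands, the CACCC box CCACCC was found in 31.5% of all windows and in that of Fgf10 alone among the 5. The TCF/LEF core CTTTGA (16.0% of all windows) and the homeobox core TAATTA (5.29%) were found in 0 of the 5. These motifs can lie side by side or overlap each other. A match is a string of letters in this window, and absence says only that these letters are not there.

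In wild type the 4 ridge ligands made up between 94.6% and 98.2% of the summed FPKM of the 8 ligands, and between 88.2% and 88.6% when 10 further secreted FGF genes were added to the sum. In Sp8 null they made up between 12.5% and 49.7% of the 8. For the test, log2(FPKM + 1) was fitted with limma for the 12133 genes that reached 1 FPKM in 3 or more libraries, and genes with a Benjamini-Hochberg adjusted p under 0.05 are called. Of the 8 ligands 4 passed the filter, and 3 of these 4 were called, all lower in Sp8 null. Of all genes tested 6.83% were called, and 5.15% were called lower. Of the 8 ligands, 5 were lower in every null library than in any wild-type library, as were 11.8% of the 27766 genes with any value. The share of calls that were higher, 24.6%, rose to 37.5% under median-of-ratios scaling and to 34.2% under upper-quartile scaling. A fall in a bulk sample can come from fewer cells of a type or from less RNA per cell, and these cannot be told apart here.

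Fgf8 (ENSMUSG00000025219; GRCm38, chromosome 19, 45736798 to 45742915, minus strand), the ridge FGF known to be required most broadly for limb outgrowth, was at 36.0, 31.3 and 30.2 FPKM in wild-type embryos 1, 2 and 3. It was at 0.460, 0.320 and 1.15 FPKM in Sp8 null embryos 1, 2 and 3. The groups lay far apart, the lowest wild-type value being 26.1 times the highest null value, and among the nulls embryo 3 kept the most. That embryo also had the highest Sp8 value of the 3 null libraries. The log2 fold change was -4.38 (SE 0.18, 95% interval -4.80 to -3.95; limma adjusted p = 2.21e-05). In the authors' deposited table the means of Fgf8 on the scale of normalized counts were 1078 for control and 24.8 for sample.

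Fgf4 (ENSMUSG00000050917; chromosome 7, 144847367 to 144865243, plus strand), a ligand known to be made in the posterior part of the ridge, was at 8.90, 9.73 and 12.1 FPKM in wild-type embryos 1, 2 and 3. In Sp8 null embryos 1, 2 and 3 it was at 0.0589, 0.0327 and 0.0162 FPKM. Every null value was near 0, and the lowest wild-type value was 151 times the highest null value. Sp8 null embryo 3, highest of the nulls for Fgf8, was lowest for Fgf4. The log2 fold change was -3.43 (SE 0.13, 95% interval -3.72 to -3.13, limma adjusted p = 1.5e-05). Its size against that of Fgf8 depends on the pseudocount. With a pseudocount of 0.1 it was -6.25 for Fgf4 and -5.61 for Fgf8. The ratio of the wild-type mean to the null mean was 285 for Fgf4 and 50.4 for Fgf8. In the authors' deposited table the normalized mean of Fgf4 was 1183 for control and 4.26 for sample.

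Fgf9 (ENSMUSG00000021974; chromosome 14, 58070547 to 58112720, plus strand), a ridge ligand of another FGF subfamily, was at 13.3, 10.2 and 8.56 FPKM in wild-type embryos 1, 2 and 3. In Sp8 null embryos 1, 2 and 3 it was at 0.680, 0.950 and 0.909 FPKM. The groups did not overlap, and the lowest wild-type value was 9.01 times the highest null value. The null libraries lay close together, with a mean of 0.846 ± 0.145 FPKM (SD, n = 3) against 10.7 ± 2.41 FPKM (SD, n = 3) in the wild-type libraries. Fgf9 had a log2 fold change of -2.64 (SE 0.16, 95% interval -3.01 to -2.28; limma adjusted p = 0.000164).

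Fgf17 (ENSMUSG00000022101; chromosome 14, 70636203 to 70642268, minus strand), a close relative of Fgf8 and Fgf18, was scarce in wild type, at 0.487, 0.792 and 1.48 FPKM in embryos 1, 2 and 3. In Sp8 null embryos 1, 2 and 3 it was at 0.0933, 0.0623 and 0.170 FPKM. The groups did not overlap, the lowest wild-type value being 2.87 times the highest null value, but the gene was under the filter. Fitted with no filter, over 27766 genes of which 1.23% were called, its log2 fold change was -0.76 (SE 0.19) and it was not called (limma adjusted p = 0.151). Its limma adjusted p was above the threshold in 17 of 17 alternatives, from 0.0599 to 0.33, all of them fits of log2 FPKM. The authors' deposited normalized means of Fgf17 were 58.2 for control and 7.66 for sample, with a signed fold change of -2.64. The 2-sided exact permutation p over the 6 libraries was 0.1, the smallest that 3 against 3 allows.

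**Figure D1:**
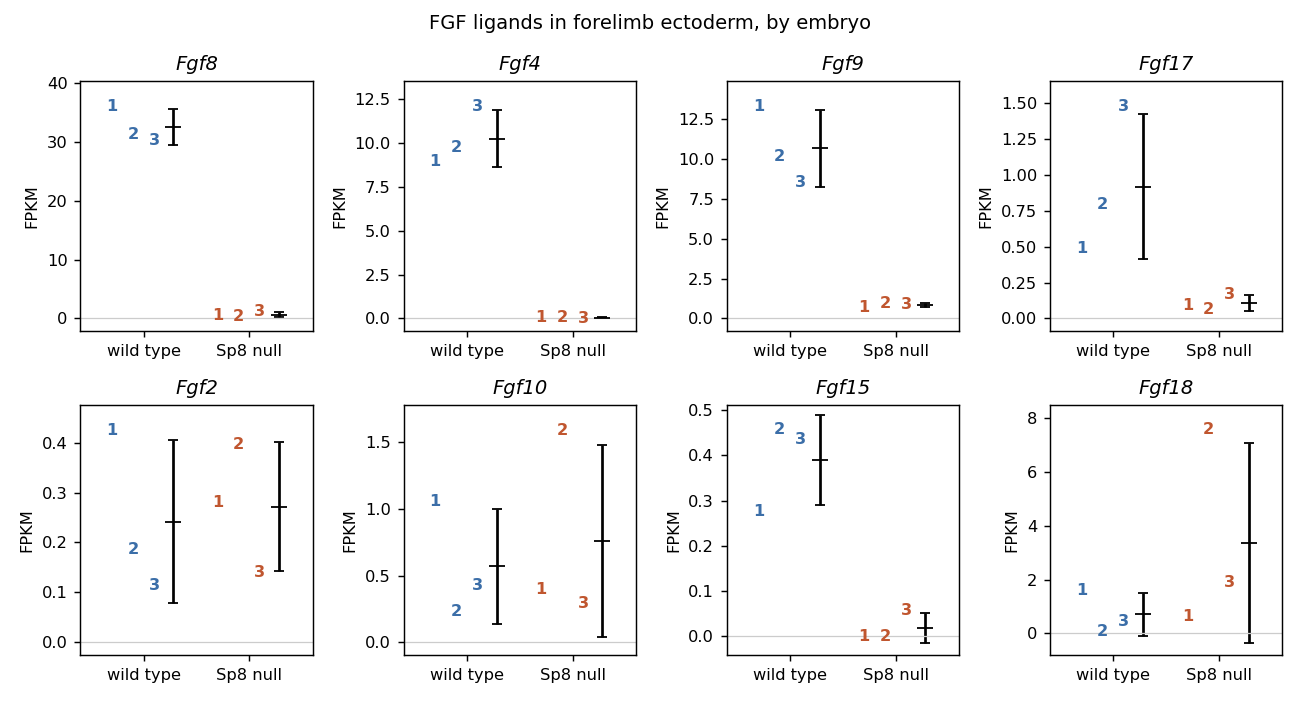
FPKM of each of the 8 ligands in each library, with wild-type embryos in blue and Sp8 null embryos in orange; the digit is the embryo number, the black bar shows the group mean ± SD (n = 3), and each panel has its own linear axis. Fgf8, Fgf4, Fgf9, Fgf17 and Fgf15 do not overlap between the groups, while Fgf2, Fgf10 and Fgf18 do.

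The ratios among the 3 strongly expressed ridge ligands had no overlap between the genotypes. With 3 embryos against 3 the exact permutation test used for the ratios cannot pass the threshold, and no other test of them was run. In wild type Fgf8 was between 2.50 and 4.05 times the level of Fgf4, and in Sp8 null between 7.82 and 71.3 times. Fgf8 was between 2.71 and 3.52 times the level of Fgf9 in wild type, and between 0.337 and 1.27 times in Sp8 null. The log2 ratio of Fgf4 to Fgf9 moved most, from -0.05 ± 0.54 (SD, n = 3) in wild type to -4.73 ± 1.15 (SD, n = 3) in Sp8 null. The 2-sided exact permutation p of each ratio was 0.1, the smallest possible, and 0.1 after Benjamini-Hochberg adjustment over the 3 ratios. Any 2 of the ratios fix the third, and both ratios with Fgf4 rest on null values between 0.0162 and 0.0589 FPKM.

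Summed over the 4 ridge ligands, expression was 54.3 ± 3.79 FPKM (SD, n = 3) in wild type and 1.64 ± 0.533 FPKM (SD, n = 3) in Sp8 null. Fgf8 supplied 59.8% ± 1.86 (SD, n = 3) of the ridge sum in wild type and 36.8% ± 14.0 (SD, n = 3) in Sp8 null. Fgf9 supplied 19.5% ± 3.14 (SD, n = 3) and 54.2% ± 14.7 (SD, n = 3). What remained in the null ectoderm was therefore mostly Fgf9 transcript in null embryos 1 and 2, while in null embryo 3 Fgf8 held the larger share, 51.3%.

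**Figure D2:**
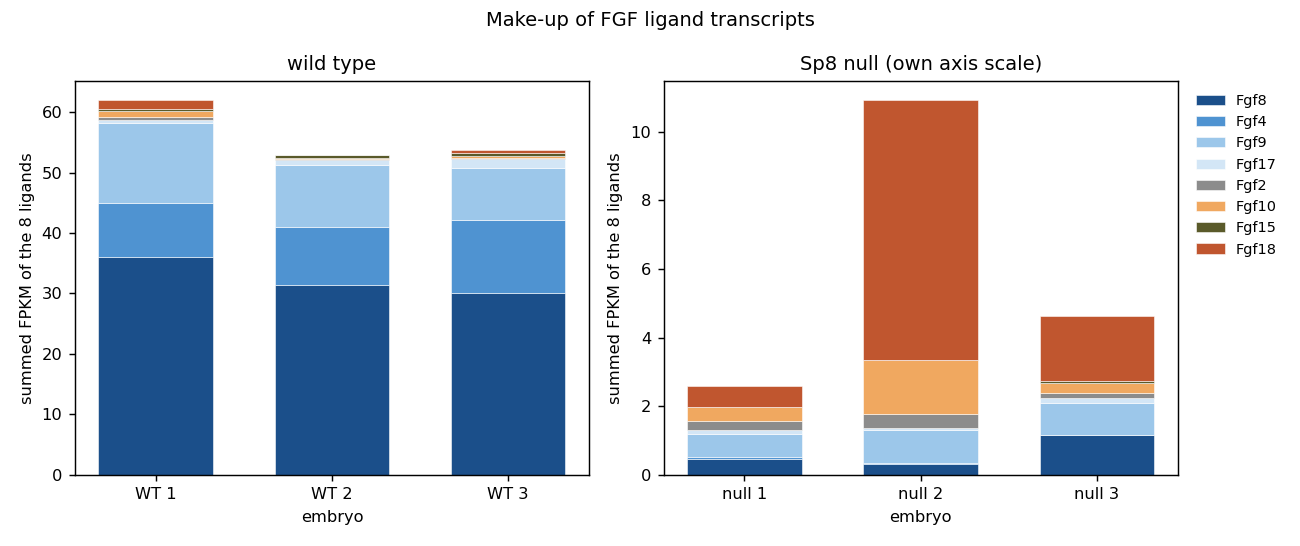
Stacked FPKM of the 8 ligands in each library, wild type on the left and Sp8 null on the right, each side with its own linear axis starting at 0. The wild-type bars reach 53.0 to 62.1 FPKM and consist mainly of Fgf8, Fgf4 and Fgf9; the null bars reach 2.60 to 10.9 FPKM, and Fgf18 is the tallest block in null embryos 2 and 3.

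In wild type the order of mean level was Fgf8, Fgf9, Fgf4, Fgf17, Fgf18, Fgf10, Fgf15 and Fgf2, from 32.5 down to 0.242 FPKM. The ranges of Fgf9 and Fgf4 overlapped, as did those of every pair of neighbours from Fgf17 down, so only the steps from Fgf8 to Fgf9 and from Fgf4 to Fgf17 exceeded the spread. In Sp8 null the order was Fgf18, Fgf9, Fgf10, Fgf8, Fgf2, Fgf17, Fgf4 and Fgf15, from 3.36 down to 0.0190 FPKM. Neighbouring ranges were apart there at 1 step, from Fgf17 to Fgf4.

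Fgf15 (ENSMUSG00000031073; chromosome 7, 144896531 to 144900953, plus strand), the mouse counterpart of human FGF19, is better known from the embryonic brain and the intestine. It was low in wild type, at 0.276, 0.457 and 0.436 FPKM in embryos 1, 2 and 3. In Sp8 null it was listed at 0 in embryos 1 and 2 and at 0.0569 FPKM in embryo 3. The groups did not overlap. The authors' deposited table gave normalized means of 25.2 for control and 1.23 for sample, so the difference rests on few reads. With no filter the log2 fold change was -0.45 (SE 0.06; limma adjusted p = 0.0421), and 0.958% of genes were called lower in that fit. Over its alternatives the adjusted p ran from 0.0254 to 0.232 in limma. The call was kept in 7 of 17 alternatives. It was lost without each of wild-type embryos 2 and 3 and each of the 3 null embryos (limma adjusted p from 0.0939 to 0.148), and in the 4 libraries whose names begin with 5 (0.198). Its exons share 761 bases with Gm26793, an antisense gene at no more than 0.0447 FPKM in any library.

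Fgf4 and Fgf15 lie next to each other, with Fgf3 on their other side, in a stretch of 62.9 kb on chromosome 7, all on the plus strand. Gene starts here are the first bases of the GENCODE M21 genes. For Fgf4 that base lies 14.0 kb before the RefSeq start whose promoter window is printed above. The end of Fgf3 lies 2.93 kb before the GENCODE start of Fgf4 and 16.95 kb before its RefSeq start, and the end of Fgf4 lies 31.3 kb before the start of Fgf15. Fgf3 (ENSMUSG00000031074; 144838083 to 144844436) is not one of the 8 ligands and was singled out for this position after its values were seen. It was at 0.969, 1.48 and 0.787 FPKM in wild-type embryos 1, 2 and 3. In Sp8 null it was listed at 0 in embryos 1 and 3 and at 0.0110 FPKM in embryo 2, and with no filter its log2 fold change was -1.04 (limma adjusted p = 0.0334). The call of Fgf3 was kept in 9 of 17 alternatives, with adjusted p from 0.00616 to 0.268, and was lost without wild-type embryo 1 and without each null embryo. All 3 genes of the cluster thus had no overlap between the groups, with null values at or near 0.

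Within 300 kb of the GENCODE start of Fgf4, 11 other genes had a value in some library, and 4 of them passed the filter. Of these 4 genes 1 was called, the cyclin gene Ccnd1, a driver of entry into the cell cycle, whose start lies 92.6 kb beyond that GENCODE start and 78.5 kb beyond the RefSeq start. Ccnd1 fell from a mean of 51.0 FPKM to one of 31.1 FPKM (log2 fold change -0.70, limma adjusted p = 0.0173), and the call was kept in 13 of 19 alternatives; it was lost without wild-type embryos 1, 2 and 3 and without null embryo 1 (limma adjusted p from 0.051 to 0.0593). Ppfia1 and Fadd on the other side of the cluster were not called (log2 fold change -0.05 with limma adjusted p = 0.801, and 0.01 with 0.966). Within 300 kb of Fgf8, 6 other genes were tested and 1 was called, Fbxw4, which is known to carry regulatory elements of Fgf8 in its introns. Its start lies at -82.6 kb relative to that of Fgf8, and its mean was 2.27 FPKM in wild type and 1.22 FPKM in Sp8 null. Its log2 fold change was -0.57 (limma adjusted p = 0.0446), a call kept in 4 of 18 alternatives and lost without each library in turn except null embryo 3. Around Fgf9, 0 of 6 other tested genes were called, and around Fgf17, 2 of 8. These 2 moved in opposite directions. Slc39a14 fell (log2 fold change -1.59, limma adjusted p = 0.000152) and Phyhip rose (0.70, 0.0301). Of all genes tested 6.83% were called, and the neighbour counts were not tested against that share.

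**Figure D3:**
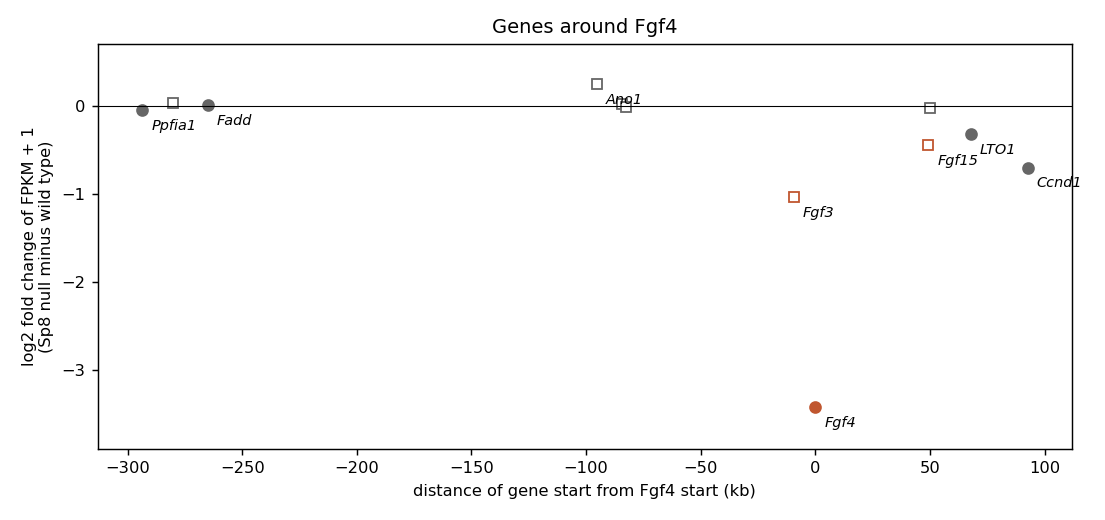
Log2 fold change (Sp8 null minus wild type, of FPKM + 1) of each gene with a value within 300 kb of Fgf4, against the distance in kb of its start from that of Fgf4 (GENCODE gene starts); filled circles passed the filter, open squares did not and come from the fit with no filter, and Fgf3, Fgf4 and Fgf15 are orange. Fgf4 stands lowest at -3.43, followed by Fgf3 at -1.04, Ccnd1 at -0.70 and Fgf15 at -0.45; with a pseudocount of 0.1 Fgf3 is at -3.47, Fgf15 at -2.05 and Ccnd1 at -0.72.

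Fgf18, Fgf10 and Fgf2 overlapped between the groups and were not called. Fgf18 (ENSMUSG00000057967; chromosome 11, 33117430 to 33147400, minus strand), a ligand known from skeletal development, was at 1.60, 0.0662 and 0.456 FPKM in wild-type embryos 1, 2 and 3. In Sp8 null embryos 1, 2 and 3 it was at 0.630, 7.58 and 1.88 FPKM. Null embryo 2 stood above every other library, and null embryo 1 lay below wild-type embryo 1. The log2 fold change was 1.11 (SE 0.59, 95% interval -0.27 to 2.49) and was not called (limma adjusted p = 0.307). Without null embryo 2 it was 0.45 (limma adjusted p = 0.606), without wild-type embryo 1 it was 1.46 (limma adjusted p = 0.256), and in the 4 libraries whose names begin with 5 it was 2.0 (limma adjusted p = 0.145).

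Fgf10 (ENSMUSG00000021732; chromosome 13, 118669791 to 118792115, plus strand), the mesenchymal ligand that signals to the ectoderm, was at 1.06, 0.234 and 0.423 FPKM in wild-type embryos 1, 2 and 3. It was at 0.398, 1.59 and 0.287 FPKM in Sp8 null embryos 1, 2 and 3. The spread within each group was larger than the difference between them, and with no filter the log2 fold change was 0.12 (95% interval -0.69 to 0.94; limma adjusted p = 0.888). Fgf2 (ENSMUSG00000037225; chromosome 3, 37348346 to 37410108, plus strand), a ligand without a classical signal peptide, lay between 0.114 and 0.425 FPKM in wild type and between 0.139 and 0.397 FPKM in Sp8 null, with a log2 fold change of 0.04 (95% interval -0.26 to 0.33; limma adjusted p = 0.906 with no filter). Its exons share 640 bases with Nudt6 on the other strand, which was at 0.440 to 1.07 FPKM, and reads of the pair cannot be told apart unless strand was used.

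The library order of Fgf10 followed that of the mesenchyme marker mean, and Fgf18 shared its highest and its lowest library. Of the 16 mesenchyme markers 10 were highest in null embryo 2, 4 in wild-type embryo 1, and 1 each in wild-type embryo 3 and null embryo 1. Prrx1, a mesenchymal homeobox gene, was at 16.5, 3.92 and 9.93 FPKM in wild-type embryos 1, 2 and 3 and at 13.6, 53.3 and 12.0 FPKM in Sp8 null embryos 1, 2 and 3. The highest value of Prrx1, Fgf10 and Fgf18 was in null embryo 2 and the lowest in wild-type embryo 2. Over the 13 tested mesenchyme markers, the mean log2(FPKM + 1) ran from 3.64 in null embryo 2 through 2.98, 2.41, 2.40 and 2.24 to 1.86 in wild-type embryo 2, and Fgf10 placed the 6 libraries in the same order. Fgf18 did not, since null embryo 3 was next to highest for Fgf18 but next to lowest for the marker mean. Pdgfra, a receptor gene of mesenchymal cells, ran another way, at 23.8, 19.8 and 21.4 FPKM in wild-type embryos 1, 2 and 3 and at 6.37, 19.5 and 6.01 FPKM in Sp8 null embryos 1, 2 and 3. Of the 13 markers 0 were called between the genotypes in limma, and 4 had an unadjusted p under 0.05, 3 of them higher in Sp8 null (Twist2, Col3a1 and Meox2) and 1 lower (Pdgfra). Without null embryo 2, and likewise without wild-type embryo 1, 1 marker was called. The part of mesenchymal transcripts in the Fgf10 and Fgf18 values was not tested beyond the covariate fit. With the marker mean as a covariate, an alternative chosen after seeing the data, the log2 fold change was 0.65 for Fgf18 (limma adjusted p = 0.229) and -0.11 for Fgf10 (limma adjusted p = 0.668). The same covariate left Fgf8, Fgf4 and Fgf9 called. With it 7 mesenchyme markers were called, but the covariate is the mean of these markers, so nothing is concluded from that number.

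**Figure D4:**
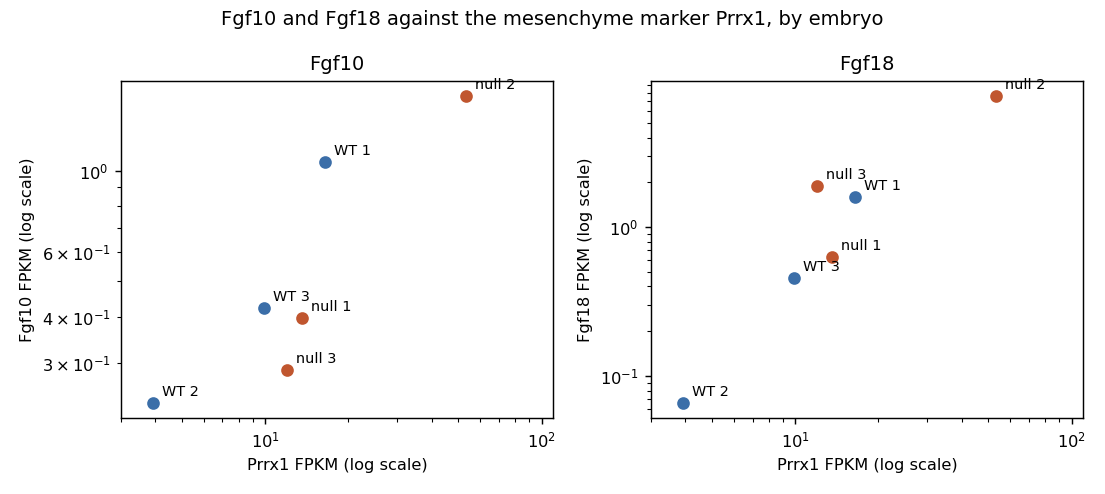
FPKM of Fgf10 (left) and Fgf18 (right) against FPKM of the mesenchyme marker Prrx1 in each of the 6 libraries, both axes logarithmic, wild type in blue and Sp8 null in orange. Null embryo 2 lies highest on both axes, at 53.3 FPKM of Prrx1, and wild-type embryo 2 lowest, at 3.92 FPKM.

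Of 10 further secreted FGF genes 2 passed the filter and 1 was called. This was Fgf1, a ligand without a signal peptide that binds all FGF receptors, at 2.01, 2.57 and 2.93 FPKM in wild-type embryos 1, 2 and 3 and at 1.07, 0.861 and 0.925 FPKM in Sp8 null embryos 1, 2 and 3 (log2 fold change -0.84, limma adjusted p = 0.0123). The call of Fgf1 was kept in 15 of 18 alternatives. It was lost without wild-type embryo 2 (limma adjusted p = 0.0547), with no filter (0.0668) and with the embryo number as a block (0.0505). The other tested gene, Fgf5, had a log2 fold change of -0.56 (limma adjusted p = 0.105). Of the 4 intracellular FGF homologous factors, which are not secreted as ligands, 2 passed the filter and 0 were called.

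On the receptor side of the pathway no gene was called. Of 11 FGF receptors and binding partners 7 were tested and 0 passed the test in limma (0 also at an unadjusted p under 0.05), with a median log2 fold change of 0.15 against -0.06 over all tested genes. Fgfr2, the main FGF receptor of epithelia, was at 129, 137 and 130 FPKM in wild-type embryos 1, 2 and 3 and at 148, 138 and 172 FPKM in Sp8 null embryos 1, 2 and 3. The groups did not overlap, but by a narrow margin (log2 fold change 0.20, 95% interval -0.00469 to 0.41, limma adjusted p = 0.217). Fgfr1, which mesenchyme also expresses, was highest in null embryo 2, at 12.5 FPKM against 4.80 to 9.70 FPKM elsewhere.

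Among 11 genes known to be induced by FGF signalling, most of which feed back on it, all had lower means in Sp8 null. Of the 12133 genes tested 7432 were lower in Sp8 null by log2 fold change, and 5.15% were called lower. All 11 passed the filter, and 5 were called, all lower (median log2 fold change of the 11, -0.40, against -0.06 over all tested genes). Spry1, an intracellular inhibitor of receptor tyrosine kinase signalling, was at 18.9, 19.3 and 18.3 FPKM in wild-type embryos 1, 2 and 3 and at 6.17, 5.15 and 6.0 FPKM in Sp8 null embryos 1, 2 and 3 (log2 fold change -1.55, limma adjusted p = 0.000119). The libraries of each genotype lay close together, and this call was kept in all 19 alternatives. The other called genes were the ETS factors Etv5 (log2 fold change -1.41, limma adjusted p = 0.0173) and Etv4 (-1.26, 0.0128), the inhibitor Spry4 (-1.28, 0.0307) and the MAP kinase phosphatase Dusp6 (-0.70, 0.0168). Spry4 and Etv5 were lowest in null embryo 2, the library with the most mesenchymal transcripts, at 6.48 and 6.58 FPKM. Without that library 5 genes were called, and the log2 fold change was -0.95 for Spry4 and -1.09 for Etv5. The number called was 1 without wild-type embryo 2, 2 without wild-type embryo 1, 3 without null embryo 1 and 4 without wild-type embryo 3. It was 1 with no filter and 1 in the 4 libraries whose names begin with 5. Spry2, Etv1, Il17rd, Spred1, Spred2 and Spred3 were not called, with log2 fold changes from -0.40 to -0.05.

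**Figure D5:**
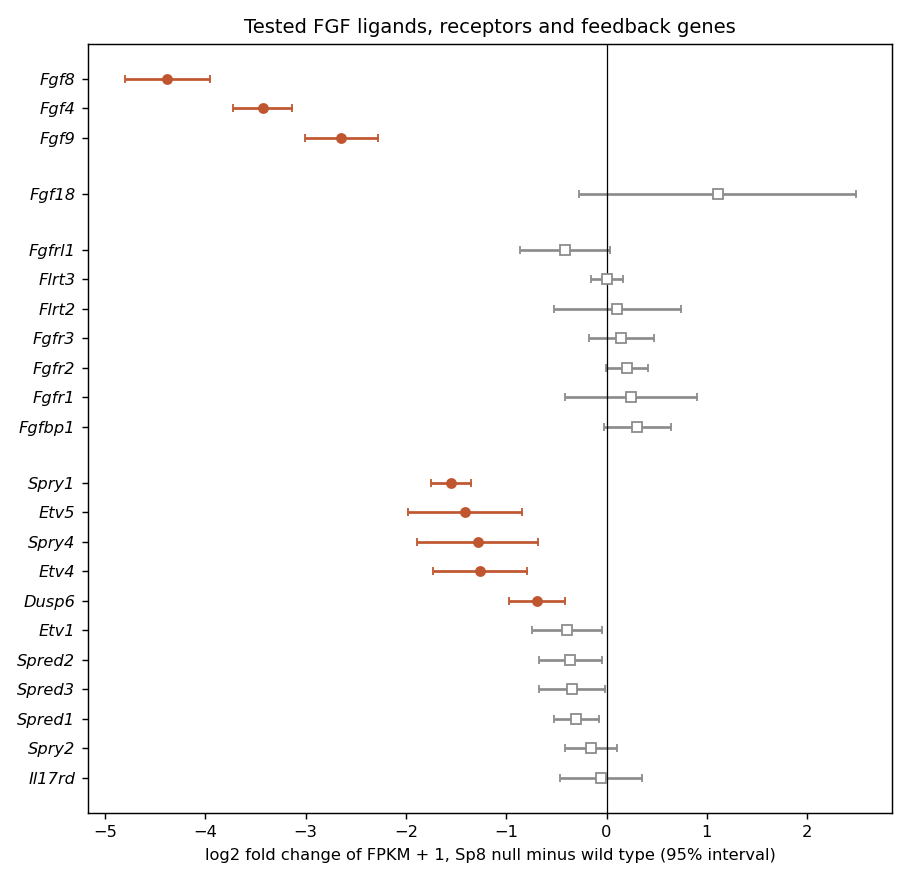
Log2 fold change of FPKM + 1 (Sp8 null minus wild type) with its 95% interval from limma for each tested FGF ligand, receptor or binding partner, and feedback gene, grouped from top to bottom in that order; filled orange circles were called and open grey squares were not. Fgf8, Fgf4 and Fgf9 lie farthest to the left, the interval of Fgf18 spans 0, and Spry1 leads the feedback genes at -1.55.

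Of 18 genes known to act upstream of ridge FGFs 15 were tested and 9 were called, 8 lower, Sp8 itself among them, and 1 higher. Of all genes tested 6.83% were called. The fall of Sp8 was set by the design, and the list was chosen with earlier results of these data known. Rspo2, a secreted enhancer of Wnt signalling, went from 14.0 ± 1.11 FPKM (SD, n = 3) to 0.227 ± 0.0645 FPKM (SD, n = 3; log2 fold change -3.61, limma adjusted p = 5.68e-06). Its receptor gene Lgr4 was the one that rose, from 6.96 ± 0.862 FPKM (SD, n = 3) to 10.9 ± 0.346 FPKM (SD, n = 3), with a log2 fold change of 0.59 (limma adjusted p = 0.0157). Of the 15 ectoderm markers 2 were called, Epcam lower (log2 fold change -0.53, limma adjusted p = 0.0313) and Tfap2a higher (0.52, 0.0163). This number was 0 without wild-type embryo 1 and without wild-type embryo 3, and 1 without each of wild-type embryo 2 and null embryos 1 and 2. It was also 0 with no filter, with the embryo number as a block and in the libraries whose names begin with 5. Of 9 early genes of cell dissociation 5 were tested and 2 were called, Btg2 higher (log2 fold change 0.80, limma adjusted p = 0.00383) and Jun lower (-0.53, 0.0404), a number that was 1 without any single library other than wild-type embryo 3. None of the 6 tested erythroid genes and the 1 tested endothelial gene was called in limma, and 0 of 9 macrophage genes passed the filter.

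By profile, the genes most like Fgf8 were found among 6949 other tested genes whose mean reached 5 FPKM. The measure was the root-mean-square difference over the 6 libraries between log2(FPKM + 1) values, each gene being centred on its own mean. The nearest 5 were Fam46a (0.403), Cd44 (0.465), Rspo2 (0.471), Gpx2 (0.492) and Vwde (0.501), each value being that difference in log2 units. Each of the 5 fell in Sp8 null, with log2 fold changes from -4.07 (Gpx2) to -3.47 (Vwde), against -4.38 for Fgf8. They were chosen for their likeness to Fgf8 over the same 6 libraries, so the fall follows from the choice.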

How the data were processed

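RNA from 6 libraries, 3 per genotype, was compared. The authors deposited FPKM for 49452 genes in each library, with Ensembl build 87 gene models per the file headers. Per the submitters' processing notes, the build was GRCm38 and the tools named were FastQC, SAMtools, TopHat2, Cufflinks and DESeq2, without versions. The authors' deposited table also gave group means (a normalized signal on the scale of counts), a signed fold change and a p-value, and the test behind it was not given in the sources used here. FPKM are not counts, so no count test was run.

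Here log2(FPKM + 1) was fitted by genotype with limma 3.58.1 (R 4.3.3) and a mean-variance trend, for genes that reached 1 FPKM in 3 or more libraries. The 2-sided p-values were adjusted by Benjamini-Hochberg over all tested genes. Ligands under this filter were fitted with no filter, and fold changes on this scale understate those of low genes. The fit was tested on simulated data with 200 changed genes.

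The ligands and all gene lists were chosen with earlier results of these data known. Named genes were the 8 ligands, Sp8, the called gene with the smallest p in each direction of each list, all called receptors and feedback genes, and the 5 genes nearest to Fgf8 in profile. Trp63 and Prrx1 were among markers listed to be given beside a result. Fgf3, Fgf5, Pdgfra, Twist2, Col3a1, Meox2, Meis2, Fgfr1, Fgfr2, Ccnd1, Ppfia1, Fadd, Fbxw4, Slc39a14, Phyhip and the uncalled feedback genes were named after their values were seen. Positions are from GENCODE M21 (GRCm38), which held 49109 of the identifiers. Protein sequences were not used here. Other scalings, filters, pseudocounts, covariates and left-out libraries were tried as 17 alternatives, and 2 more were added after seeing the data (the libraries whose names begin with 5, and the mesenchyme marker mean as a covariate).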

Additional observations from a re-analysis of the deposited data

How the results depend on the processing

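Fgf8, Fgf4 and Fgf9 kept their direction and their call in all 19 alternatives, with log2 fold changes from -5.61 to -4.23, from -6.25 to -3.31 and from -3.50 to -2.42. Fgf17 and Fgf18 kept their direction and were called in 0 alternatives. The number of genes called, 829, was 342 with no filter, 545 with the first digit of the sample names as covariate, 251 in the libraries whose names begin with 5, and from 316 to 642 with 1 library left out, fits with fewer samples. The number of feedback genes called, 5, was 1 with no filter, 1 in the libraries whose names begin with 5, and from 1 to 5 with 1 library left out. Fgf15 was no longer called under upper-quartile scaling (log2 fold change -0.44), with that digit as covariate (-0.45), in the libraries whose names begin with 5 (-0.49), with the mesenchyme covariate (-0.42) and with 1 library left out (from -0.51 to -0.41, still called without wild-type embryo 1). Low genes, and genes with null values near 0, depend on the pseudocount. At 0.1 the log2 fold change was -2.05 for Fgf15, -2.20 for Fgf17, -6.25 for Fgf4 and -5.61 for Fgf8. Uncalled values changed sign for Fgf2 without null embryo 2 (-0.03), without wild-type embryo 3 (-0.037) and with the mesenchyme covariate (-0.028), and for Fgf10 without null embryo 2 (-0.19), without wild-type embryo 2 (-0.03) and with the mesenchyme covariate (-0.11). Values with 1 library left out ranged from -0.037 to 0.14 for Fgf2 and from -0.19 to 0.33 for Fgf10. The cause was not tested.

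Embryos that share a number across genotypes were not paired: their departures from the 2 group means correlated at -0.16, -0.14 and -0.07. With the embryo number as a replicate block 328 genes were called, Fgf8, Fgf4 and Fgf9 among them, and Fgf15 was not (log2 fold change -0.45, limma adjusted p = 0.232). Read totals are not known, so no interval for counting error could be given for values under 1 FPKM, among them all null values of Fgf4, Fgf9, Fgf17 and Fgf15.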
